A study of Sus scrofa with 31 samples.

Results

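PPARA and PPARG, the genes of the nuclear receptors PPARα and PPARγ, were followed in RNA-seq counts from 5 groups of pig samples. They are 2 of the 31907 Ensembl genes counted, ENSSSCG00000000006 and ENSSSCG00000011579. They were selected on their measured levels in microglia and alveolar macrophages, which lay in opposite directions, so the comparison of those cells is given for them as a description without a test. Another gene of the same set, FABP4, which encodes a fatty acid-binding protein, had no identifier in the study's supplementary tables, from which the identifiers of this set were taken, and was not analysed here.

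The samples came from male crossbred piglets (Large White × Landrace sows with Danish Duroc semen) in the fourth week of life, reared in standard or freer farrowing pens. The sample labels used here do not give the pen of a pig, and they name no treatment or genotype. Microglia were sorted from dissociated cerebellum, frontal cortex and hippocampus as CD11b hi CD45 lo cells (n = 8 samples for each region). Alveolar macrophages were sorted from lung lavage as F4/80+ CD163 lo cells (n = 3), and pieces of whole hippocampus gave hippocampal tissue (n = 4). The tag numbers in the labels name 15 pigs, of which 9 gave more than 1 sample. Total counts per sample ran from 18438494 to 43477403 (median 29243994), so that 3 counts corresponded to 0.069 to 0.163 CPM (counts scaled to a common library total). Among the 11633 genes tested, 12.2% were higher and 10.1% lower in microglia than in alveolar macrophages, and 11.7% were higher and 22.1% lower in hippocampal microglia than in tissue, by the thresholds used here.

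PPARs bind DNA as partners of the retinoid X receptors (RXR) and are switched on by fatty acids and their oxidised products. PPARα is best known for driving fatty acid oxidation in liver and other tissues that burn fat. PPARγ is known as the regulator of fat cell formation and, in the lung, as a factor that alveolar macrophages need for their maturation under the cytokine GM-CSF and for handling surfactant lipid. In microglia both receptors have mostly been studied as brakes on inflammatory gene expression.

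Because PPARA, PPARG and PPARD descend from a common ancestor, the coding sequences were first compared to see whether reads could pass from one gene to another. In Sscrofa11.1 as annotated by RefSeq, PPARA lies on chromosome 5 (3302755 to 3321091, minus strand) and PPARG on chromosome 13 (68301566 to 68433951, plus strand). The longest run of identical bases shared by the coding exons was 14 bases for PPARA and PPARG, 23 for PPARA and PPARD and 14 for PPARG and PPARD. No stretch of 50 bases, the length of a sequencing read, was shared by any of the 3 pairs. The 100 bases around the run of 14 shared by PPARA and PPARG, which lie in coding exon 5 of PPARA and coding exon 6 of PPARG, are shown 5′ to 3′ on each gene's strand to let the likeness of the genes be seen, with the shared run in capitals.
PPARA, chr5:3305438-3305537, minus strand: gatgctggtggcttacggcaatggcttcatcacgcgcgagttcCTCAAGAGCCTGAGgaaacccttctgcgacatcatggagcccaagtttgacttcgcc
PPARG, chr13:68416241-68416340, plus strand: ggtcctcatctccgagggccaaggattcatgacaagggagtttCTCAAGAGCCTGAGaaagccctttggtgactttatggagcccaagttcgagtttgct
Of these 100 aligned positions, 72 were identical in PPARA and PPARG, with the differences spread over the window. RefSeq holds 8 transcript models for PPARG, but for PPARA a single partial model limited to coding sequence. A length for PPARA transcripts was therefore lacking, and the level of PPARA was not compared with the level of PPARG within a group. Only the change of their ratio between groups is given.

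PPARA had its lowest values in alveolar macrophages. The 3 macrophage samples held 1.4 CPM (pig 12821), 2.64 CPM (pig 12829) and 2.71 CPM (pig 12984), from 51, 100 and 127 counts. In the 24 microglia samples PPARA ran from 11.8 to 36.9 CPM with a median of 18.5. All 24 lay above the 3 macrophage samples, as was the case for 14.3% of all genes tested. The group means were 2.25 ± 0.733 CPM in alveolar macrophages (SD, n = 3) and 19.1 ± 5.72 CPM in microglia (SD, n = 24), a fitted log2 difference of 3.07 (SE 0.30). Leaving out any macrophage sample kept this difference between 2.84 and 3.30. Microglia of more than 1 region came from 7 pigs, and the fit treated their samples as independent.

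PPARG had the opposite order. The 3 macrophage samples held 16.2 CPM (pig 12821), 14.8 CPM (pig 12829) and 56.9 CPM (pig 12984), from 589, 563 and 2667 counts. The microglia samples ran from 0 to 13.2 CPM with a median of 6.51, so that the lowest macrophage sample lay just above the highest microglia sample. The groups did not overlap, as was the case in this direction for 17.4% of all genes tested. The means were 29.3 ± 23.9 CPM in alveolar macrophages (SD, n = 3) and 7.03 ± 3.19 CPM in microglia (SD, n = 24), with a fitted log2 difference of -2.11 (SE 0.52) for microglia minus macrophages.

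The size of the PPARG difference depended on the macrophage sample of pig 12984. Its PPARG level was 3.66 times the mean of the other 2 macrophage samples. Without it the fitted log2 difference was -1.13 (SE 0.67), and without pig 12821 or pig 12829 it was -2.39 or -2.42. The other 2 macrophage samples averaged 2.21 times the microglia mean and that of pig 12984 was 8.09 times that mean. With the pig as a block, where the lone sample of pig 12984 no longer contributes, the difference was -0.50 (SE 0.94). Within the 2 pigs that gave both alveolar macrophages and hippocampal microglia, microglia minus macrophages was -0.78 (pig 12821) and -0.72 (pig 12829) for PPARG on the log2 scale. PPARA was higher in the microglia of the same 2 pigs by 3.65 and 2.70.

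**Figure D1:**
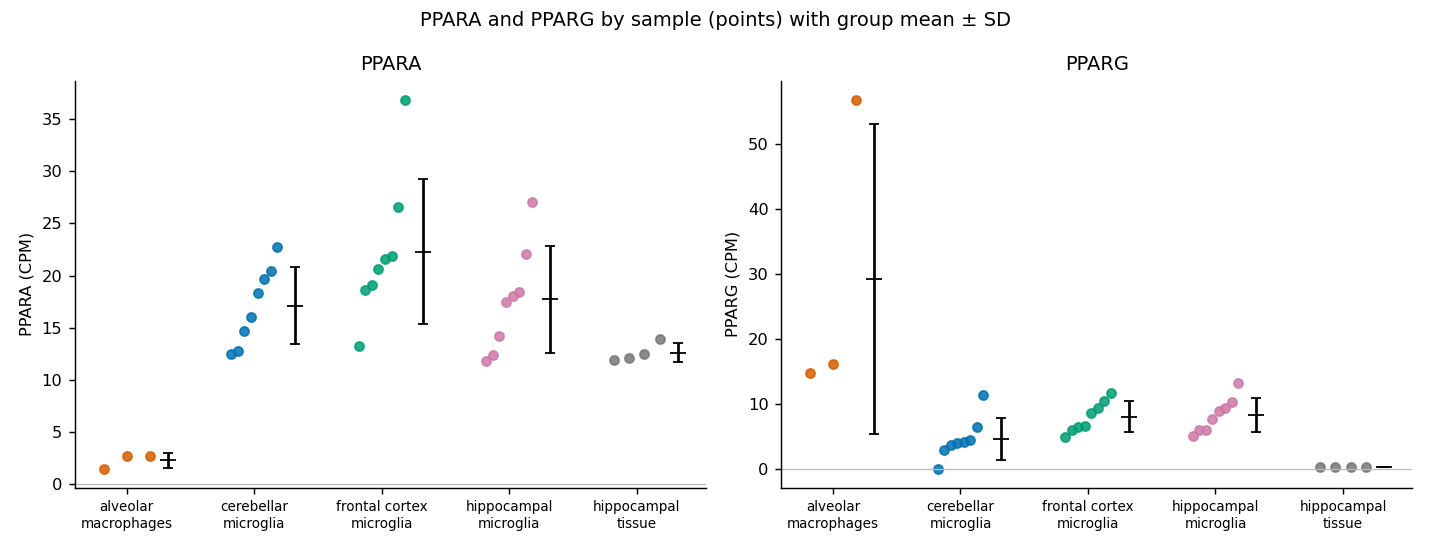
PPARA (left) and PPARG (right) in CPM on the vertical axes for each of the 31 samples, in 5 groups; points are samples and the bars beside them are the group mean ± SD. The 3 macrophage samples lie at 1.4 to 2.71 CPM for PPARA, under all other samples, and for PPARG at 14.8, 16.2 and 56.9 CPM, over all other samples.

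The sample of pig 12984 also differed from the other macrophage samples in some cell type markers. The summed level of 6 alveolar macrophage markers (MRC1, CD163, SIGLEC1, ADGRE1, CHIT1 and MARCO) was 1100 CPM in this sample against 643 and 664 CPM in the others. Summed T cell markers (5 genes) were 579 CPM against 904 and 1220, and lung epithelial markers (5 genes) 36.6 CPM against 75.4 and 148. B cell markers (5 genes) lay between the others, at 252 CPM against 236 and 379. So did oligodendrocyte markers, at 185 CPM against 80.4 and 201, and astrocyte markers, at 30.0 CPM against 21.3 and 31.4. The alveolar sorts thus held T and B cell transcripts beside the macrophage markers, while MARCO, a scavenger receptor of alveolar macrophages, had at most 3 counts in every one of the samples. Adipocyte markers, which matter for PPARG because fat cells express it, summed to 5.26 to 12.3 CPM over 3 genes in the macrophage samples and were highest in pig 12984, with LEP at no more than 3 counts. The part of these markers in the PPARG level was not tested.

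Among all genes tested, 2.36% had a higher ratio of pig 12984 to the other 2 macrophage samples than PPARG had. Of 69 pathway genes tested (lists described further on), 7 were over 2 times higher in pig 12984 than in the mean of the others, or 10.1% against 6.33% of all genes tested. One of them, chosen for mention after its values were seen, was NR1H3, the gene of the oxysterol receptor LXRα, with 86.7 CPM in pig 12984 and 24.9 and 20.1 CPM in the others. FABP5, a fatty acid-binding protein that carries lipid ligands to PPARs, was chosen in the same way. It stood at 106 CPM in pig 12984 and at 47.1 and 34.3 CPM in the others. Of the 69 genes, 34 were highest and 18 lowest in pig 12984, where 4292 and 4260 of the 11633 genes tested were so. SCD, among the 18, had 22.3 CPM in pig 12984 and 36.6 and 45.1 CPM in the others.

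The comparison of sorted hippocampal microglia with whole hippocampus asked which transcripts were higher in the sorted cells than in the whole region. PPARA and PPARG were selected on another comparison, that of microglia with alveolar macrophages, but it shares the microglia samples. Their identifiers also came from the study's supplementary tables, which list genes higher in hippocampal microglia than in tissue. The tests against tissue are therefore not fully independent of the choice. PPARG was present in microglia and detected at a low level in tissue. Tissue held 0.397 CPM (pig 12821), 0.347 CPM (pig 12829), 0.337 CPM (pig 12847) and 0.359 CPM (pig 12872), from 11 to 13 counts. Hippocampal microglia ran from 5.10 to 13.2 CPM (median 8.36), and no sample of one group reached the other, as was the case in this direction for 31.1% of all genes tested. PPARG was 4.51 higher in microglia on the log2 scale (SE 0.80, adjusted p = 1.27e-05, edgeR's quasi-likelihood test, adjusted over all genes tested). The means differed 23.2-fold. Under limma-voom the difference was 4.46 but the adjusted p was 0.0164, above the threshold of 0.01, and with the pig as a block in limma-voom it was 0.0167. PPARG had passed the filter on low counts through alveolar macrophages alone, not through either group compared here.

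The summed level of 6 microglia markers was 2180 to 3190 CPM in hippocampal microglia and 99.6 to 138 CPM in tissue. In whole tissue, fewer cells of a type and less RNA per cell cannot be told apart. Per the study's methods, cells were dissociated and sorted before extraction, and RNA of cells and tissue was extracted by different protocols. This difference in handling cannot be told apart from cell type here.

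PPARA was found at comparable levels in whole hippocampus and in the microglia sorted from it. The 4 tissue samples held 11.9, 12.5, 12.1 and 13.9 CPM (pigs 12821, 12829, 12847 and 12872) and the 8 hippocampal microglia samples 11.8 to 27.1 CPM (median 17.8). The groups overlapped, although 6 of the 8 microglia samples lay above all tissue samples. The log2 difference was 0.48 (SE 0.24, adjusted p = 0.0663, edgeR's quasi-likelihood test), which did not pass the thresholds of 0.01 on adjusted p and 4 on fold change. With the pig as a block in edgeR the difference was 0.62 (SE 0.17) and the adjusted p 0.00355, still under the fold threshold.

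Within pigs the differences were similar in size. In the 4 pigs that gave both samples, PPARA was higher in microglia than in tissue in 4 of 4, by 0.63, 0.49, 0.57 and 0.67 on the log2 scale for pigs 12821, 12829, 12847 and 12872. PPARG was higher in 4 of 4 by 4.36, 4.45, 4.67 and 4.2. For each gene the exact sign-flip test gave p = 0.125, the smallest that 4 pairs allow (adjusted p = 0.25 over 8 such tests).

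The ratio of PPARA to PPARG, as log2 CPM of PPARA minus log2 CPM of PPARG, differed between the kinds of sample. It was -3.47, -2.46 and -4.36 in the alveolar macrophages of pigs 12821, 12829 and 12984, and 4.69, 4.92, 4.91 and 5.03 in the hippocampal tissue of pigs 12821, 12829, 12847 and 12872. Hippocampal microglia lay between them, from -0.16 to 2.15 (median 1.09), as did frontal cortex microglia, from 1.01 to 2.14 (median 1.32). Cerebellar microglia ran from 0.79 to 8.10 (median 1.75), and the sample at 8.10, that of pig 12599 with no PPARG count, lay above all tissue samples. In hippocampal microglia the mean ratio was 1.09 ± 0.66 (SD, n = 8) against 4.89 ± 0.15 in tissue (SD, n = 4), a difference of -3.80 (exact permutation test, two-sided, p = 0.00404). This p is the smallest that the test allows for 8 and 4 samples, and the test treats samples of the same pig as independent. The ratio mostly restates the fitted log2 difference of PPARG (4.51), whose groups did not overlap, beside the smaller one of PPARA (0.48). It is not a separate result. All 4 pigs with both samples had the lower ratio in microglia, where a paired exact test could not go below p = 0.125. The ratio in alveolar macrophages is a description, since the opposite direction of the genes there was the reason for choosing them.

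**Figure D2:**
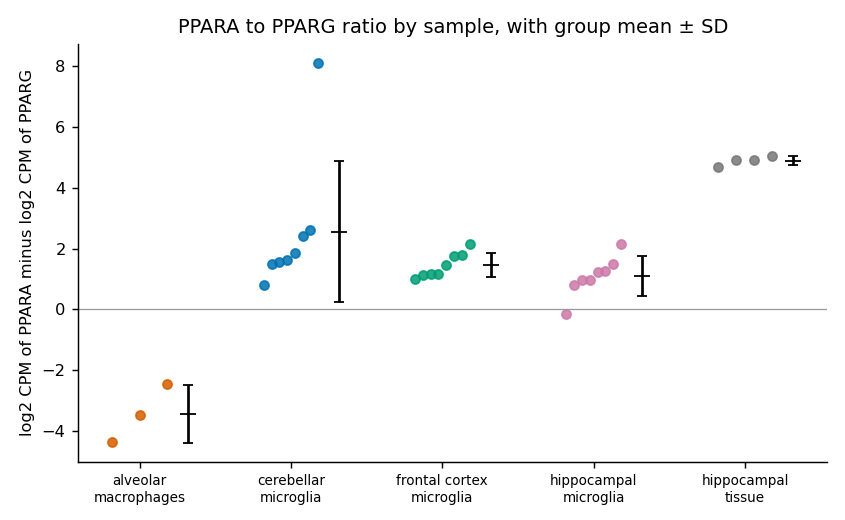
Log2 CPM of PPARA minus log2 CPM of PPARG on the vertical axis for each sample in 5 groups; points are samples and bars the group mean ± SD. Macrophages lie at -4.36 to -2.46, tissue at 4.69 to 5.03 and microglia between them, except the cerebellar sample at 8.10, in which PPARG had no counts.

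Ordered by mean level, PPARA was 22.3 ± ± 7.0 in frontal cortex microglia, 17.7 ± 5.11 in hippocampal microglia, 17.1 ± 3.72 in cerebellar microglia (SD, n = 8 each), 12.6 ± 0.895 in hippocampal tissue (SD, n = 4) and 2.25 ± 0.733 in alveolar macrophages. Neighbours in this order overlapped, except tissue and macrophages. PPARG was 29.3 ± 23.9 CPM in alveolar macrophages, 8.36 ± 2.68 in microglia of the hippocampus, 8.09 ± 2.42 in those of the frontal cortex and 4.65 ± 3.27 in those of the cerebellum, and 0.360 ± 0.0261 in hippocampal tissue. Here the 3 microglia groups overlapped with one another, and cerebellar microglia overlapped with tissue only through the sample of pig 12599, which had no PPARG count.

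Whether the genes differed between microglia of the 3 regions was tested across all regions and in pairs. Over all genes tested, 2.03% varied between regions at an adjusted p under 0.01. Cerebellar microglia held 12.5 to 22.7 CPM of PPARA (median 17.1), frontal cortex microglia 13.2 to 36.9 CPM (median 21.1) and hippocampal microglia 11.8 to 27.1 CPM. PPARA did not pass the F test across regions (adjusted p = 0.288, edgeR's quasi-likelihood test), with a log2 difference of 0.38 (SE 0.19) between frontal cortex and cerebellum, 0.34 (SE 0.19) between frontal cortex and hippocampus, and 0.04 (SE 0.19) between hippocampus and cerebellum. The ranges of the 3 groups overlapped widely, and the differences within pigs are given further on.

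PPARG held 0 to 11.4 CPM in cerebellar microglia (median 4.12), 4.93 to 11.8 CPM in frontal cortex microglia (median 7.71) and 5.10 to 13.2 CPM in hippocampal microglia. The cerebellar sample of pig 12821 was the highest of its group at 11.4 CPM. That of pig 12599 had 0 counts of 26237578, which allows a level of up to 0.114 CPM (counting error only), while the frontal cortex sample of the same pig held 117 counts (4.93 CPM). The F test was not passed (adjusted p = 0.433, edgeR's quasi-likelihood test), with log2 differences of 0.80 (SE 0.51) for frontal cortex minus cerebellum, 0.84 (SE 0.51) for hippocampus minus cerebellum and -0.04 (SE 0.51) for frontal cortex minus hippocampus. Without the cerebellar sample of pig 12599 the frontal cortex minus cerebellum difference was 0.61 (adjusted p = 0.291 across regions), and with all samples it was 1.74 in limma-voom (adjusted p = 0.236) and 1.46 with the pig as a block in edgeR (adjusted p = 0.434).

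That sample was also one with many isolated zeros. In it, 10 tested genes were at 0 although every other cerebellar sample had at least 50 counts of them, and in the frontal cortex sample of pig 12599 there were 9 such genes, where the 24 microglia samples had 0 to 10 (median 1.5). Oligodendrocyte markers (4 genes) summed to 741 CPM in the cerebellar sample of this pig and 1790 CPM in its frontal cortex sample, against medians of 193 and 305 CPM for these groups. The cerebellar sample of pig 12583 held 777 CPM of these markers, 0 isolated zeros and 102 PPARG counts (4.24 CPM). The part of the markers or of the isolated zeros in the PPARG value was not tested.

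Both cerebellar and frontal cortex microglia were available from 6 pigs, and both genes were higher in the frontal cortex in 6 of 6. The share of all genes tested with that pattern is not given here. The sign-flip tests between regions were chosen after the data were seen. PPARA differed by 0.26 (pig 12599), 0.04 (pig 12750), 0.70 (pig 12758), 0.55 (pig 12847), 0.38 (pig 12891) and 0.37 (pig 12902) on the log2 scale. The mean was 0.38 ± 0.23 (SD, n = 6 pairs, exact sign-flip test, two-sided, p = 0.0312, the smallest that 6 pairs allow, adjusted p = 0.125 over 8 such tests). PPARG differed by 0.54 (pig 12750), 1.51 (pig 12758), 1.23 (pig 12847), 0.85 (pig 12891) and 1.03 (pig 12902), apart from pig 12599 with its cerebellar count of 0. Over these 5 pigs the mean was 1.03 ± 0.37 (SD, exact sign-flip test p = 0.0625, the smallest that 5 pairs allow), and over all 6 pigs p was 0.0312 and the adjusted p 0.125. Neither gene passed after adjustment. In the 4 pigs with cerebellar and hippocampal microglia each gene was higher in the hippocampus in 3, with pig 12821 the exception for both, and in the 3 pigs with frontal cortex and hippocampal microglia each was higher in the frontal cortex in 2.

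**Figure D3:**
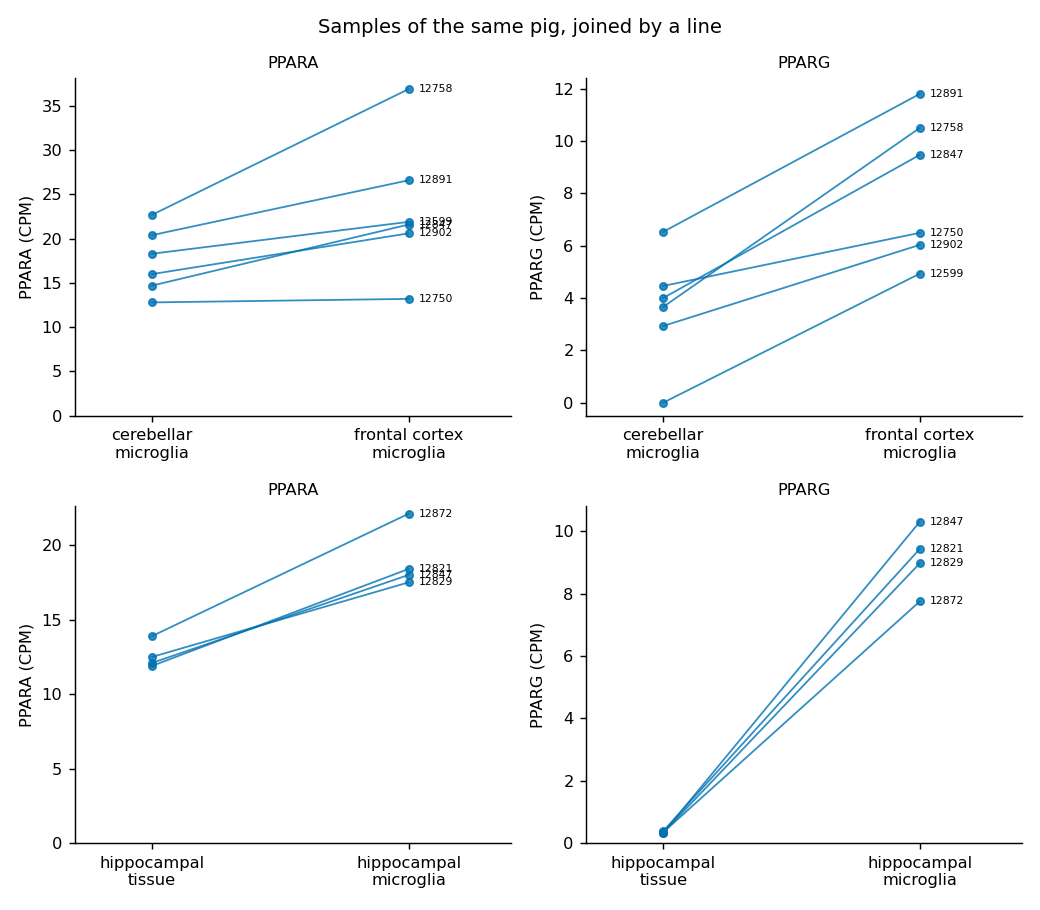
PPARA (left) and PPARG (right) in CPM on the vertical axes, with samples of the same pig joined by a line and the pig's tag number at its right end; the upper panels show cerebellar and frontal cortex microglia (6 pigs), the lower panels hippocampal tissue and hippocampal microglia (4 pigs). All lines go up from left to right, by as little as 0.04 on the log2 scale for PPARA in pig 12750.

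The other receptors with which PPARα and PPARγ share ligands or DNA are described next, and none of the 3 that were tested passed both thresholds in a comparison. PPARD, the gene of the widely expressed PPARδ, held 35.7 to 41.3 CPM in alveolar macrophages and 37.8 ± 8.16 CPM in microglia (SD, n = 24), with a log2 difference of -0.01 (SE 0.20, adjusted p = 0.979, edgeR's quasi-likelihood test). RXRA, the gene of the RXRα partner, was at 77.1 to 88.7 CPM in alveolar macrophages, above all microglia samples (20.8 to 74.8 CPM). Its log2 difference of -0.80 (SE 0.22, adjusted p = 0.00277) was under the fold threshold of 3. In hippocampal tissue RXRA was at 17.0 to 27.8 CPM, lower than in hippocampal microglia by 1.15 on the log2 scale (SE 0.25, adjusted p = 0.000164), under the fold threshold of 4. RXRB differed by 0.24 (SE 0.20, adjusted p = 0.315) between microglia and alveolar macrophages and by 0.16 (SE 0.20, adjusted p = 0.477) between hippocampal microglia and tissue.

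RXRG, the gene of RXRγ, was below the filter on low counts and was not tested. It had 0 counts in the 3 macrophage samples and 0 to 52 counts in microglia, with 11 of 24 at 0. Whole hippocampus held 330 to 1305 counts (10.1 to 37.8 CPM), so that among these receptors RXRG was detected mainly in tissue. None of the 3 receptors tested varied between the regions (adjusted p from 0.733 to 0.844).

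The wider PPAR pathway was read from 8 lists of 89 genes, of which 86 had an identifier and 69 passed the filter on low counts. Against alveolar macrophages, 13 of the 69 were higher and 10 lower in microglia, beside 12.2% and 10.1% of all genes tested. The median log2 difference of the 69 was 0.02, beside 0.06 over all genes tested. The direction differed from list to list.

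Genes of fatty acid oxidation, the programme that PPARα is known to drive, were higher in microglia for 3 of 16 tested, and none was lower past the fold threshold of 3. The median log2 difference of the 16 was -0.11, beside 0.06 over all genes tested, and several genes lay lower in microglia by less than that threshold. They included the acyl-CoA synthetase ACSL1 (-1.14), the dehydrogenases ACADVL (-0.89) and ACADM (-0.66), the carnitine transferase CPT1A (-0.72) and HADHA (-0.65), each with an adjusted p under 0.01 and named here after their values were seen. ACAA1, a peroxisomal thiolase, likewise lay higher (1.06, adjusted p = 1.11e-06). EHHADH, a peroxisomal enzyme of the pathway, held 2.69, 3.31 and 3.96 CPM in the macrophage samples and 22.1 to 48.7 CPM in microglia, a log2 difference of 3.37 (SE 0.26, adjusted p = 3.08e-12). DECR1, needed for the oxidation of unsaturated fatty acids, was 2.23 higher (SE 0.24, adjusted p = 4.55e-09), with no overlap of the groups. PDK4, the kinase that turns pyruvate dehydrogenase off, was 2.03 higher (SE 0.52, adjusted p = 0.00142), but the groups overlapped and its adjusted p was 0.137 under limma-voom, 0.133 with the pig as a block in edgeR and 0.129 with that block in limma-voom. It also missed the threshold without the macrophage sample of pig 12821 (adjusted p = 0.0105).

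In the list of lipid uptake and storage, many of whose genes PPARγ controls in fat cells, 2 of 6 genes tested were lower in microglia and 1 was higher. OLR1, a receptor for oxidised LDL, held 16.9 (pig 12821), 48.2 (pig 12829) and 71.7 CPM (pig 12984) in alveolar macrophages and 0 to 7.39 CPM in microglia. Its log2 difference was -6.06 (SE 0.78, adjusted p = 9.79e-08), or -4.97 (adjusted p = 0.0295) with the pig as a block in edgeR. ANGPTL4, an inhibitor of lipoprotein lipase and a target of all PPARs, was lower (-5.40, SE 0.51, adjusted p = 2.88e-10), with 43.8 to 59.0 CPM in the macrophage samples. SCD, the desaturase that makes monounsaturated fatty acids, was 2.49 higher in microglia (SE 0.39, adjusted p = 3.14e-06).

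Of the fatty acid-binding proteins other than FABP4, all 3 tested were lower in microglia. FABP5 differed by -3.62 (SE 1.01, adjusted p = 0.0032), FABP7 by -2.52 (SE 0.75, adjusted p = 0.00541) and FABP3 by -2.15 (SE 0.61, adjusted p = 0.00348). These calls were not firm. With the pig as a block in edgeR the adjusted p was 0.151 for FABP5, 0.0297 for FABP7 and 0.319 for FABP3, and without the macrophage sample of pig 12984 it was 0.0554, 0.0592 and 0.0362. FABP7 also missed the threshold without pig 12821 (0.0152) or pig 12829 (0.0124) and FABP3 without pig 12829 (0.0178). FABP5 missed it in DESeq2 (0.0191) and FABP7 when only the groups compared were fitted (0.042).

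The enzymes that release or make candidate PPAR ligands split in direction. PTGS1, the constitutive cyclooxygenase, was 4.72 higher in microglia (SE 0.40, adjusted p = 3.71e-11), and PLA2G4A, the phospholipase that frees arachidonic acid, 2.38 higher (SE 0.23, adjusted p = 6.68e-10). PTGS2, the inducible cyclooxygenase, held 16.8 to 23.5 CPM in alveolar macrophages and 0 to 1.97 CPM in microglia, a log2 difference of -6.0 (SE 1.07, adjusted p = 1.95e-05), with an adjusted p of 0.024 with the pig as a block in edgeR. The cyclooxygenase genes thus differed in opposite directions.

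In the list of sterol sensing and efflux, several of whose genes are targets of the LXR receptors, 4 of 9 genes tested were higher in microglia and none was lower. PLTP, a phospholipid transfer protein, ran from 809 to 1840 CPM in microglia and from 1.10 to 2.60 CPM in alveolar macrophages, a log2 difference of 9.27 (SE 0.35, adjusted p = 6.16e-19). The cholesterol exporters ABCA1 and ABCG1 differed by 4.74 (SE 0.28, adjusted p = 8.42e-15) and 3.32 (SE 0.31, adjusted p = 1.78e-10), with no overlap of the groups. NPC2, a carrier of cholesterol out of lysosomes, also passed, by 2.79 (SE 0.25, adjusted p = 1.28e-10).

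Receptors and transcription factors known to act with PPARG in macrophages gave 2 genes higher and 4 lower of 14 tested. KLF4 (-6.52, SE 1.05, adjusted p = 4.28e-06), EGR2 (-3.46, SE 0.31, adjusted p = 7.61e-11), BHLHE40 (-2.88, SE 0.23, adjusted p = 1.11e-11) and CEBPB (-1.64, SE 0.21, adjusted p = 8.68e-08) were lower in microglia. CEBPA (2.94, SE 0.22, adjusted p = 2.2e-12) and BHLHE41 (2.55, SE 0.29, adjusted p = 1.37e-08) were higher, so that the related repressors BHLHE40 and BHLHE41, which act together in alveolar macrophages, went in opposite directions. CEBPB fell under the fold threshold at -1.58 with no normalization factors, -1.54 without the macrophage sample of pig 12829 and -1.50 without that of pig 12984. The GM-CSF receptor subunits CSF2RA (-0.77, SE 0.27, adjusted p = 0.0144) and CSF2RB (-0.79, SE 0.27, adjusted p = 0.0134) did not pass. Of 12 coregulators only NRIP1, a corepressor, passed (1.87, SE 0.38, adjusted p = 0.000122), and its groups overlapped and its adjusted p was 0.0822 with the pig as a block in edgeR.

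**Figure D4:**
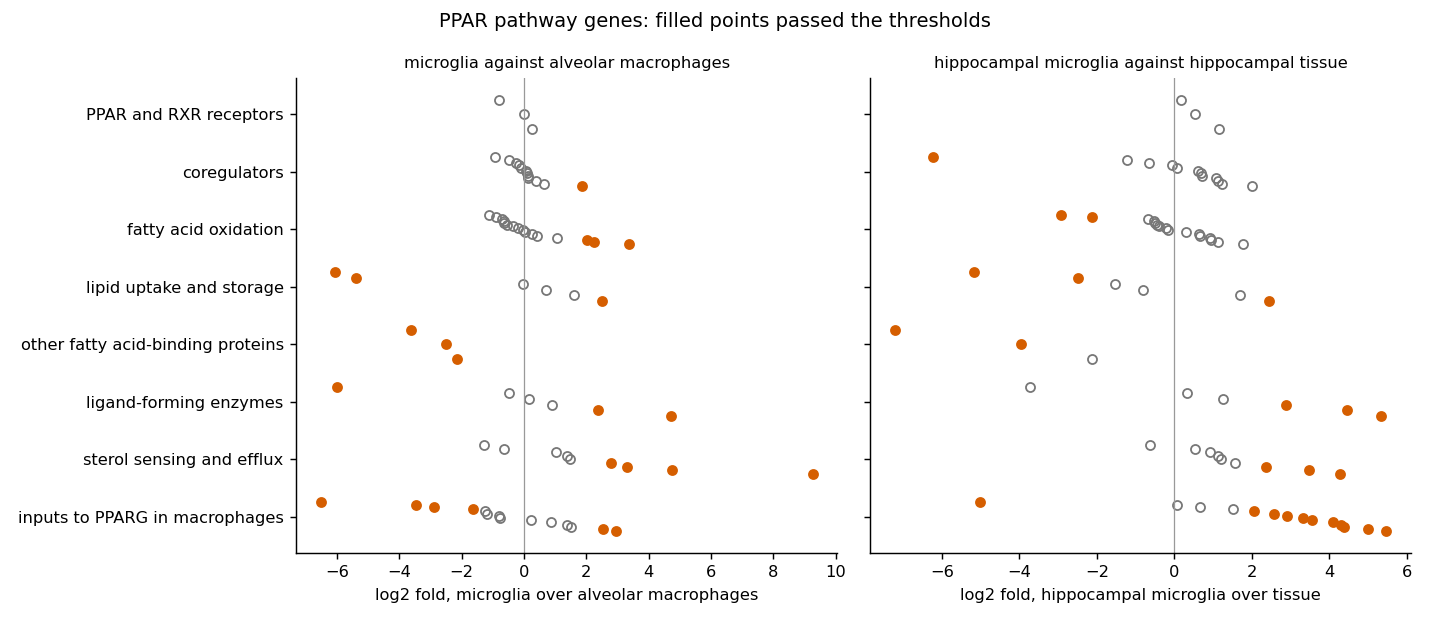
Log2 fold of each tested pathway gene on the horizontal axes, by list, for microglia over alveolar macrophages (left) and hippocampal microglia over hippocampal tissue (right); filled points passed the thresholds and open points did not. On the left 13 filled points lie right of 0 and 10 left of it, and on the right 17 and 8.

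Against whole hippocampus, 17 of the 69 genes were higher and 8 lower in hippocampal microglia, beside 11.7% and 22.1% of all genes tested. The median log2 difference was 0.68, beside -0.08 over all genes. These receptors and factors accounted for 10 of the 17, with CSF2RA (5.47, SE 0.39, adjusted p = 4.93e-13), CSF2RB (5.00, SE 0.38, adjusted p = 2.49e-12) and TGFBR2 (4.38, SE 0.15, adjusted p = 6.47e-20) the farthest apart and KLF4 lower (-5.01, SE 1.49, adjusted p = 0.00334). The summed microglia markers given above were also higher in hippocampal microglia than in tissue, while KLF4 went the other way. The part of these markers in the differences was not tested.

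Ligand-forming enzymes were higher in hippocampal microglia for 3 of 6 tested, namely PTGS1 (5.33, SE 0.37, adjusted p = 3.36e-13), ALOX5 (4.46, SE 0.26, adjusted p = 3.87e-15) and PLA2G4A (2.87, SE 0.22, adjusted p = 3.25e-12). PLTP (4.26, SE 0.23), NPC2 (3.48, SE 0.24) and ABCA1 (2.37, SE 0.21) were higher among 9 sterol genes, with adjusted p of 1.35e-15, 2.61e-13 and 7.52e-11. PLIN2, the lipid droplet coat protein that both receptors are known to induce, was higher by 2.43 (SE 0.24, adjusted p = 5.71e-10).

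Genes lower in microglia than in tissue numbered 8. FABP7, a fatty acid-binding protein of astrocytes and their precursors, differed by -7.22 (SE 1.00, adjusted p = 3.08e-07), and FABP3 by -3.97 (SE 0.72, adjusted p = 1.84e-05). The coactivator PPARGC1A held 40.9 to 57.2 CPM in tissue and 0 to 3.06 CPM in hippocampal microglia, a log2 difference of -6.24 (SE 1.47, adjusted p = 0.000411). PDK4 (-2.92, SE 0.42, adjusted p = 5.33e-07), GPD1 (-2.48, SE 0.33, adjusted p = 1.44e-07) and ACSL1 (-2.12, SE 0.18, adjusted p = 2.37e-11) were also lower, ACSL1 with a log2 difference of -1.91, under the fold threshold, when no normalization factors were used and -1.88 without the tissue of pig 12829. Astrocyte markers summed to 3290 to 3970 CPM over 5 genes in tissue and to 165 to 441 CPM in hippocampal microglia. Neuron markers (5 genes) summed to 1750 to 2110 CPM in tissue and 1.15 to 35.5 CPM in hippocampal microglia, and oligodendrocyte markers (4 genes) to 11100 to 21900 CPM and 138 to 411 CPM. The part of these markers in the differences was not tested.

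Between the regions 2.03% of all genes tested varied. Of the 69 pathway genes 1 passed, EGR2, an early response transcription factor that alveolar macrophages also use (adjusted p = 0.00066 from edgeR). Its mean was 19.4 ± 11.6 CPM in the cerebellum, 6.35 ± 2.56 CPM in the frontal cortex and 5.21 ± 2.21 CPM in the hippocampus (SD, n = 8 each), while PPARG was lowest in the cerebellum without passing the test. The log2 difference of EGR2 was -1.61 (SE 0.33, adjusted p = 0.00429) for frontal cortex minus cerebellum and -1.90 (SE 0.34, adjusted p = 0.00216) for hippocampus minus cerebellum, where 0.894% and 0.438% of all genes tested were lower. Its adjusted p across regions was 0.0133 under limma-voom and 0.0106 with the pig as a block in edgeR, both just above the threshold.

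For each receptor the 5 genes with a symbol whose log2 CPM over the 31 samples followed it most closely were taken from the genes tested. For PPARA they were PCDH12, ATP6V0A1, AGAP1, CADM1 and LOC100625046, with Pearson's r between 0.92 and 0.93 and Spearman's rho between 0.52 and 0.66. Each had its lowest group mean in alveolar macrophages, as in ATP6V0A1 with 20.7 CPM there and 469 to 498 CPM in the microglia groups. For PPARG they were TMSB10, S1PR2, SNORD22, TNFRSF13C and PTBP3, with r between 0.80 and 0.81 and rho between 0.65 and 0.77. Each had its lowest group mean in hippocampal tissue, and in none was the highest macrophage value set apart in pig 12984 as it was for PPARG. None of these 10 genes was among the closest 5 by Spearman's rho. The samples share pigs and fall into groups, so these correlations describe differences between groups and carry no p.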

How the data were processed

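Total RNA-seq of 31 samples was used as the raw counts per gene that the authors deposited, without normalization. Per the study's methods, libraries from a stranded kit were read as 50 bp pairs, BBtools 38.67 did the trimming, Hisat2 the alignment to Sscrofa11.1 with Ensembl release 99, and StringTie the counting. PPARA and PPARG, the lists of pathway genes and the markers were chosen with earlier results of these data known. Identifiers came from the supplementary tables (3689 with a symbol) and, for 55 of the 86 pathway genes with an identifier, from a reference table of Ensembl names, while CD36, AQP7 and FABP1 had none.

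A gene was tested when each sample of some group exceeded 10 CPM (11633 of 31907). Counts were scaled by TMM (factors 0.826 to 1.16) and fitted with edgeR 4.0.16 (R 4.3.3) by the quasi-likelihood test with 1 model of the 5 groups. This main model treated samples of the same pig as independent, and the pig as a block was an alternative. Thresholds were an adjusted p (Benjamini-Hochberg) under 0.01, with a fold over 3 against alveolar macrophages and over 4 against tissue, and none on fold between regions. The study named limma-voom, which was an alternative here (limma 3.58.1), as was DESeq2 1.42.0. Standard errors came from the F statistic. Levels are TMM-scaled CPM; a prior count of 2 was added for log2 CPM. Exact permutation and sign-flip tests were two-sided (scipy 1.17.1). The code was tested on simulated counts. Group was read from the sample labels and replicate is the pig's tag number. Samples of 1 pig share an animal, so the numbers pair them: the mean correlation of deviations from group means was 0.125 for 13 pairs of microglia samples, 0.0372 for 4 of microglia and tissue and 0.0569 for 3 of macrophages and microglia, against -0.00742, -0.00583 and -0.00256 between pigs. The lowest same-pig correlations of these kinds of pair were -0.374, 0.0148 and -0.0011, so the likeness was not found in every pair. No replicates were copies (lowest chi-square per degree of freedom 18.9).

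Named pathway genes are the PPAR and RXR receptors, up to 3 genes per direction and list with the largest fold among those past the thresholds in each comparison with macrophages or tissue, and every list gene that varied between regions. NPC2, CEBPB, CSF2RA and CSF2RB against alveolar macrophages were added after their values were seen. Some genes of the lists are not reported here by name. Coordinates and sequences are from RefSeq annotation release 106 of Sscrofa11.1.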

Additional observations from a re-analysis of the deposited data

Results flagged for a closer look

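In 28 sets of 4 to 8 samples (PPARA, PPARG, PPARD, RXRA, RXRB and RXRG and the PPARA to PPARG ratio in each group but alveolar macrophages), 5 had a sample whose gap to the others passed Dixon's critical value, and chance flags about 1 in 20. PPARG in the cerebellar microglia of pig 12599 was at 0 counts, or -3.90 on the log2 CPM scale with the prior count, where the other 7 samples lay between 1.58 and 3.51. The PPARA to PPARG ratio of the same sample was 8.10, where the others lay between 0.79 and 2.62, and it follows from the same count of 0. PPARD in the frontal cortex microglia of the same pig was low at 3.87 (14.5 CPM), with the others between 5.21 and 5.74. PPARD in the cerebellar microglia of pig 12821 was high at 5.67 (50.8 CPM), with the others between 5.00 and 5.22, in the sample that also held the most PPARG of its group. RXRA in the frontal cortex microglia of pig 12891 was low at 4.39 (20.8 CPM), with the others between 5.33 and 6.07.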

How the results depend on the processing

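The main values were recomputed with limma-voom, DESeq2, RLE or no factors, edgeR's filterByExpr or no filter, the pig as a replicate block, only the groups compared, and samples left out. No direction reversed. PPARG in hippocampal microglia against tissue (4.51) missed the adjusted p of 0.01 at 4.46 in limma-voom and 4.37 with the pig as a replicate block in limma-voom. PPARG against alveolar macrophages (-2.11) was -0.50 with the replicate block in edgeR, which rests on the 2 pigs with both cell types, and ran from -2.42 to -1.13 over samples left out. The PPARA to PPARG ratio against tissue was -3.83 in the 4 pairs of the same pig (p = 0.125, exact sign-flip test, the smallest possible). Pathway genes lower than in alveolar macrophages went from 10 to 5 with the replicate block in edgeR, and ran from 6 to 10 over samples left out, with 6 without pig 12984. Pathway genes that varied between regions went from 1 to 0 in limma-voom, 2 in DESeq2 and 0 with the replicate block in edgeR. Of 42 results for named pathway genes, 32 stayed past the thresholds throughout, and the block changed no other call than those given here and beside the genes. Alternatives chosen after seeing the data were leaving out the cerebellar sample of pig 12599, an adjusted p under 0.05 and the sign-flip tests between regions. They changed no regional call of PPARA or PPARG. With 3 macrophage samples, 1 of them far from the others, the size of the PPARG difference is poorly fixed.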
